A study of Mus musculus with 16 samples.

Results

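Livers of humanized PXR-CAR-CYP3A4/3A7 mice were compared with livers of wild-type C57BL/6 Ntac mice after both had received TCPOBOP. The comparison rests on 8 of the 16 RNA-seq libraries of the series, 4 humanized and 4 wild-type, chosen by their labels. The compound was given at 3 mg/kg in 2 administrations 24 h apart, and treatment lasted 48 h. The other 8 libraries, 4 of each strain, came from mice given the vehicle, 2% DMSO in corn oil. They share no library with the 2 TCPOBOP groups, and here they serve to show which strain differences were already there without the compound. All 16 libraries were fitted together, so the vehicle libraries also entered the gene filter, the scaling and the spread behind the TCPOBOP p-values. A fit of the 8 TCPOBOP libraries alone gave 1171 genes higher and 1368 lower in humanized livers. Sex, age, litter, sequencing batch and the genetic background of the humanized line are not stated in the labels. Human receptor and CYP3A genes, which the humanized line carries, were not analysed here, so all values below are of mouse genes.

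CAR (constitutive androstane receptor) and PXR (pregnane X receptor) are nuclear receptors of hepatocytes that sense drugs, bile acids and other foreign compounds. Once active they bind DNA as heterodimers with RXR and switch on enzymes of oxidation, conjugation and export, of which the Cyp2b, Cyp2c and Cyp3a genes are the classical targets. TCPOBOP is a potent agonist of mouse CAR that hardly activates the human receptor, and in mice it also causes liver enlargement with hepatocyte proliferation. The strain comparison under TCPOBOP shows which liver genes differ between wild-type mice and a line humanized for CAR, the receptor that the compound activates. That line is humanized for PXR and CYP3A as well, and its genetic background is not stated. The parts of these in a strain difference cannot be told apart here.

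Every value below is in CPM, counts scaled by library total and TMM factor, unless it is called a log2 difference. Log2 differences are humanized minus wild-type, with their standard error, and a gene passed the test where its Benjamini-Hochberg adjusted p in edgeR was under 0.05. A signed number beside an adjusted p is the log2 difference, and where a pair of ranges is given, the humanized range comes first. The interaction is the test of whether the strain difference under TCPOBOP differed from that under vehicle. No source says more of the replicates than that each group has n = 4, so p-values measure the spread between these samples.

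Total counts were 14019983 to 16755802 in the humanized and 30228724 to 37998473 in the wild-type TCPOBOP libraries. Under vehicle they were 12612610 to 16904182 and 11827994 to 19483951. Depth thus moved with strain under TCPOBOP only, and the wild-type TCPOBOP group was the deepest of the 4, which also bears on the interaction. A count of 3 corresponded to 0.1343 to 0.4391 CPM over the 16 libraries. The humanized TCPOBOP libraries differed from each other in their balance of long and short transcripts. The median log2 deviation of transcripts of at least 5000 bases minus that of transcripts of at most 1000 bases was -1.29, -0.571, 0.448 and 0.558 in replicates 1 to 4. It lay between 0.117 and 0.349 in the wild-type TCPOBOP group, between -0.556 and -0.276 in the humanized vehicle group and between 0.0234 and 0.498 in the wild-type vehicle group. Short transcripts had a median log2 strain difference of 0.462 under TCPOBOP, which was -0.0581 without humanized replicates 1 and 2. Under vehicle it was 0.55, and for transcripts of at least 5000 bases -0.273, and the part of length in the vehicle counts below was not tested. Of the short transcripts 25.5% were higher in humanized livers, and of the long ones 7.17%. Beyond refits with an offset for length and without humanized replicates 1 and 2, the part of transcript length in single results was not tested. Counts that turn on it are given with and without those 2 libraries. Wild-type vehicle replicate 2 also stood apart, with Ccnd1 at 133 CPM against 21.7 to 45.9 in the other 3.

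**Figure D1:**
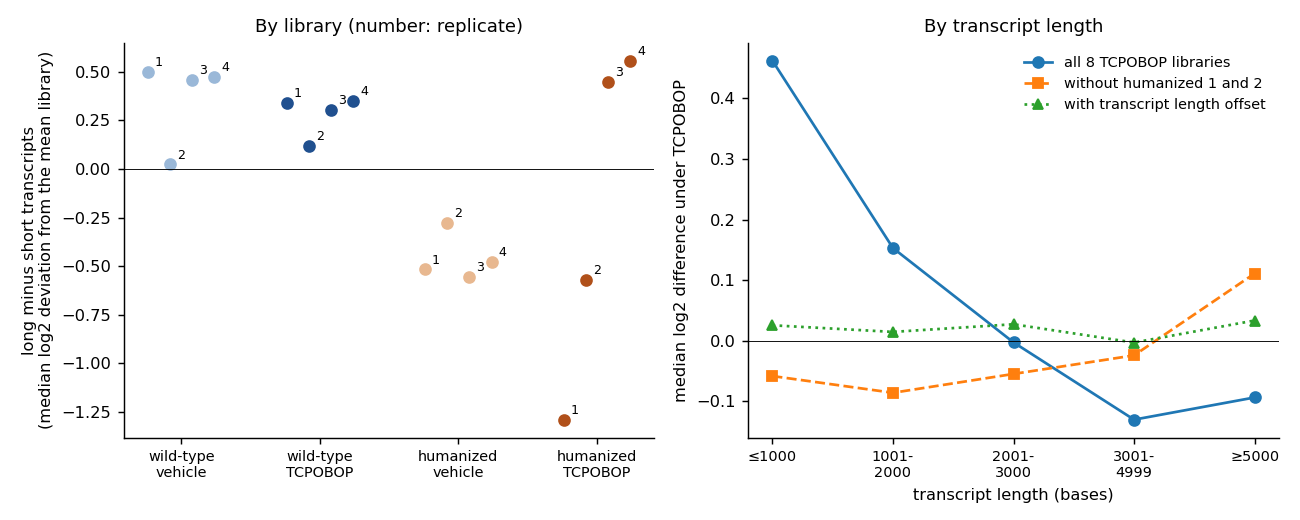
Balance of long and short transcripts by library (left, long minus short in median log2 deviation, points are libraries with their replicate number) and median log2 strain difference under TCPOBOP by transcript length in bases (right, lines with all 8 libraries, without humanized replicates 1 and 2, and with an offset for length). Humanized TCPOBOP replicates 1 and 2 lie at -1.29 and -0.571, below all wild-type libraries, and the median of the shortest class moves from 0.462 to -0.0581 when both are left out.

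The 10 hepatocyte markers held the largest sum of the marker lists in these libraries. They summed to 78570 to 96700 CPM in humanized and 40890 to 61830 CPM in wild-type TCPOBOP libraries, with 4 of 10 passing the test as higher, but 1 of 10 without humanized replicates 1 and 2. Under vehicle the order was the opposite, 71980 to 96820 CPM in humanized and 100600 to 130800 CPM in wild-type libraries, with 1 lower and 0 higher. The next values are again of TCPOBOP libraries. The 12 sinusoidal endothelial markers summed to 215.4 to 575.4 CPM in humanized and 581.5 to 740.5 CPM in wild-type livers. Lyve1, a hyaluronan receptor of these cells, was at 2.07, 1.81, 5.33 and 9.60 CPM in the 4 humanized and 26.1, 16.9, 24.0 and 19.0 CPM in the 4 wild-type libraries. Its groups did not overlap, and the log2 difference was -2.16 ± 0.41 (adjusted p = 0.000932). In all, 4 of 12 endothelial and 4 of 12 stellate markers were lower, but 1 and 0 without humanized replicates 1 and 2. Under vehicle 3 of each list were lower and 1 stellate marker was higher. The medians were -0.997 and -0.852 under vehicle, beside -0.911 and -0.9 under TCPOBOP. Under TCPOBOP the endothelial count was also 1 in the fit of the 8 TCPOBOP libraries alone. It was 1 too without humanized replicate 1 or 2 or wild-type TCPOBOP replicate 1 or 2, and 2 without replicate 4 of the latter group. Without humanized replicate 3, humanized replicate 4 and wild-type vehicle replicate 2 it was 9, 8 and 7. The stellate count was 1 without humanized replicate 1 or 2 or wild-type TCPOBOP replicate 4, and 2 without replicate 2 of that group. None of the 12 Kupffer cell markers passed (303 to 788.1 CPM in humanized and 617.7 to 845.7 CPM in wild-type libraries), but 5 were lower without humanized replicate 3. Under vehicle 8 of the 12 were lower in humanized livers (median -1.26), as were 4 of the 5 erythroid markers (median -1.51). One treatment apart, under TCPOBOP, none of the 2 neutrophil, 5 lymphocyte (8.564 to 15.88 and 12.48 to 17.68 CPM) or 5 erythroid markers passed in edgeR. There 1 Kupffer cell and 2 erythroid markers had an unadjusted p under 0.05, with 0 passing in each of these lists by DESeq2. Of the lymphocyte markers 1 was lower under vehicle. In bulk tissue, fewer cells of a type and less of its RNA per cell cannot be told apart, and the part of cell composition in the results below was not tested.

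Of 12913 genes tested, 3175 (24.6%) differed between humanized and wild-type livers under TCPOBOP. In humanized livers 1527 genes (11.8%) were higher and 1648 (12.8%) were lower, and 1699 of the 3175 differed at least 2-fold, 753 higher and 946 lower. Without humanized replicates 1 and 2, 915 genes were higher and 1239 lower, and 637 of the 1527 and 962 of the 1648 still passed in the same direction. Without wild-type TCPOBOP replicate 4, 852 genes were higher and 1111 lower. In 3539 genes (27.4%) the 4 humanized libraries lay all above or all below the 4 wild-type TCPOBOP libraries. That was so for all genes given below as having passed, apart from Ppara, Cyp7a1, Slc2a2 and Ebp, where it held for 3 of 4 humanized libraries.

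Under vehicle, 2074 genes (16.1%) differed between the strains, 918 (7.11%) higher and 1156 (8.95%) lower in humanized livers. Of the 3175 genes, 632 passed in the same direction under vehicle, which is 19.9% of the TCPOBOP and 30.5% of the vehicle genes. A further 100 passed in opposite directions, and 2443 did not pass under vehicle. The interaction passed for 963 genes (7.46%), among them 740 of the 3175, of which 297 were higher and 443 lower in humanized livers under TCPOBOP. Leaving out humanized replicates 1 and 2 raised the interaction count to 2876, and leaving out humanized replicate 1 alone raised it to 1782. The counts of listed genes below stand against 11.8% of all genes higher and 12.8% lower under TCPOBOP, and 7.11% and 8.95% under vehicle. The plot of the strain difference under both treatments shows the 5 classes of genes.

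**Figure D2:**
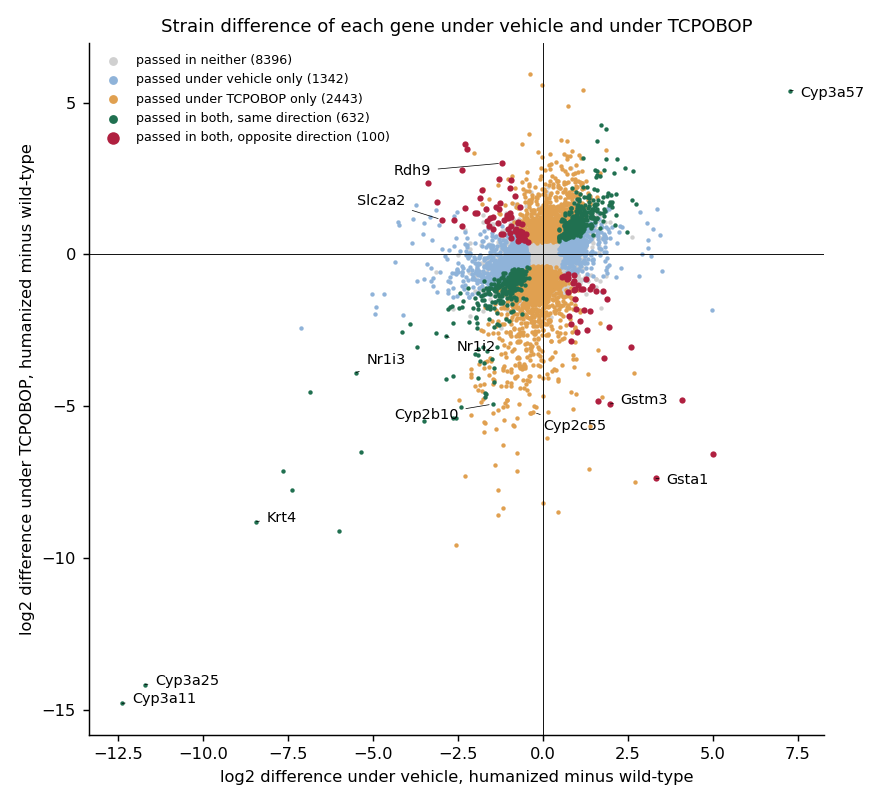
Log2 strain difference of each of 12913 genes under vehicle (x axis) and under TCPOBOP (y axis), humanized minus wild-type, coloured by where a gene passed the test. The mouse Cyp3a11 and Cyp3a25 genes lie at the lower left, low in humanized livers under both treatments, while Cyp2c55 lies near 0 under vehicle at -5.19 under TCPOBOP, and Gsta1 and Gstm3 are among the 100 genes of opposite direction.

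The mouse genes at the humanized loci come first, since they check the labels. Nr1i3, which encodes mouse CAR (mm10 chromosome 1, 171213934 to 171218845), was at 2.21, 2.79, 5.02 and 3.79 CPM in the 4 humanized TCPOBOP livers and at 53.5, 57.9, 46.2 and 51.6 CPM in the 4 wild-type ones. Every humanized library was below every wild-type library, and the gene was 14.8-fold lower (log2 difference -3.89 ± 0.22, adjusted p = 2.04e-09). The difference was smaller than under vehicle, where Nr1i3 was at 1.63 to 2.70 and 93.4 to 107 CPM (interaction 1.60, adjusted p = 0.00325). Nr1i2, which encodes PXR (chromosome 16, 38248349 to 38294849), was at 17.3, 23.2, 18.3 and 14.5 CPM in humanized and 115, 141, 109 and 107 CPM in wild-type livers. It was 6.45-fold lower (log2 difference -2.69 ± 0.20, adjusted p = 9.15e-08), and the interaction did not pass (0.16, adjusted p = 0.807). Neither gene was at 0 in any humanized library.

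Cytochromes of the Cyp3a family oxidize a wide range of drugs and steroids. Cyp3a11 (chromosome 5, 145854607 to 145879854) was at 0.738, 0.419, 0.819 and 0.237 CPM in humanized and 16060.0, 13704, 17337 and 16679 CPM in wild-type TCPOBOP livers. With 18 counts in all 4 humanized libraries together, it was at the edge of detection there and 28060-fold lower (log2 difference -14.78 ± 0.66, adjusted p = 1.92e-10). Cyp3a25 had 1 count in the humanized and 62564 in the wild-type TCPOBOP libraries, a ratio of 24300 (95% counting interval 4360 to 960000), and Cyp3a59 was at 0.237 to 1.84 CPM in humanized and 56.0 to 125 CPM in wild-type livers (log2 difference -6.52 ± 0.58, adjusted p = 5.91e-07). Cyp3a44 and Cyp3a16 had no count in humanized TCPOBOP libraries. Set to a floor of 3 counts for the whole group, they were at least 62.5-fold and at least 24.5-fold lower. Cyp3a57 went the other way, at 3.99, 5.16, 4.81 and 2.13 CPM in humanized and 0.109, 0, 0.187 and 0.0482 CPM in wild-type livers (5.40 ± 0.49, adjusted p = 8.21e-07). Cyp3a13, at 236 to 425 and 314 to 479.9 CPM, did not pass (-0.51, adjusted p = 0.156). Of the 9 tested mouse genes of these loci, 7 were thus lower and 1 higher. It was not tested whether transcripts of the human genes gave counts in related mouse genes such as Nr1i2 or Cyp3a57, and single members of the Cyp3a, Cyp2c, Gsta, Gstm, Sult and Mup families, which share sequence, are uncertain.

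The share of genes near the loci that passed was close to that of all genes. Of the 100 tested genes nearest Nr1i3 on chromosome 1, 23 passed (23.0%), of the 100 nearest Nr1i2 on chromosome 16, 22 passed (22.0%), and of the 81 nearest Cyp3a11 on chromosome 5, 20 passed (24.7%), beside 24.6% of all genes. Those that also passed in the same direction under vehicle numbered 3, 6 and 3.

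Cyp2b10 and Cyp2c55, a pair of CAR targets that oxidize drugs, were lower in humanized than in wild-type livers under TCPOBOP. Cyp2b10, the standard readout of CAR activity (chromosome 7, 25897658 to 25926624), was at 79.7, 63.3, 201 and 76.3 CPM in humanized and 2871, 3561, 3325 and 3044 CPM in wild-type livers. Humanized replicate 3 was the highest of its group and still far below every wild-type library. The gene was 30.4-fold lower (log2 difference -4.93 ± 0.46, adjusted p = 1.12e-06), against 2.77-fold under vehicle (adjusted p = 0.0253), and the interaction passed (-3.45, adjusted p = 0.00141). Cyp2c55 (chromosome 19, 39006940 to 39042690), another CAR and PXR target, was at 31.9, 32.6, 41.4 and 38.8 CPM in humanized and 1370.0, 1014, 1366 and 1535 CPM in wild-type livers. It was 36.5-fold lower (-5.19 ± 0.34, adjusted p = 1.25e-08), while under vehicle both strains lay between 6.90 and 26.2 CPM (log2 difference -0.28, adjusted p = 0.511).

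Members of the Cyp2 list, these 2 included, differed in both directions. Of 26 tested, 8 were lower and 8 higher, with a median log2 difference of -0.161 beside 0.00507 for all genes. The median was -0.271 without humanized replicates 1 and 2 and -0.255 with an offset for transcript length. Under vehicle 6 were lower and 1 higher, with a median of -0.312. Cyp2c38 was at 23.5, 18.7, 32.8 and 13.6 CPM in humanized and 4.00, 4.43, 3.27 and 2.99 CPM in wild-type TCPOBOP livers, and Cyp2c67 at 85.2 to 112 and 18.4 to 28.6 CPM. In both genes the wild-type TCPOBOP group was the low one of the 4 groups, since under vehicle humanized and wild-type livers were at 22.7 to 39.7 and 23.7 to 38.7 CPM for Cyp2c38. Their log2 differences were 2.59 (adjusted p = 3.77e-06) and 2.10 (adjusted p = 4.33e-06), and both interactions passed (2.33 and 2.59). The list counts were not stable, with 4 higher without humanized replicate 3, 5 higher without wild-type TCPOBOP replicate 3 or 4, and 5 lower without humanized replicate 2, both humanized replicates 1 and 2, or wild-type TCPOBOP replicate 4.

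Targets of the aryl hydrocarbon receptor and the shared electron donor of the cytochromes were lower as well. Cyp1a2, a drug-oxidizing cytochrome of the pericentral zone, was at 527, 893, 925 and 779 CPM in humanized and 2570.3, 3288, 2749 and 2991 CPM in wild-type livers (-1.89 ± 0.20, adjusted p = 4.57e-06). Cyp1a1 was at 2.07 to 3.07 and 8.16 to 9.68 CPM (-1.70, adjusted p = 4.26e-05). The groups were apart for both genes. Of the 6 tested targets of this receptor 2 were lower and 1 higher under vehicle, with a median of -0.274. Under TCPOBOP 5 were lower, with a median of -0.852, and the interaction passed for 2. Without humanized replicates 1 and 2, 4 were lower and 1 higher under TCPOBOP. Por, the reductase that passes electrons to cytochromes, was at 775, 544, 902 and 489 CPM in humanized and 1516, 2453, 1561 and 1487 CPM in wild-type livers (-1.37 ± 0.31, adjusted p = 0.00429). In the list of partners and related receptors to which Por and Ppara belong, 3 of 21 were higher and 2 lower, with 5 higher without wild-type vehicle replicate 2 and 1 lower without humanized replicates 1 and 2. Of 10 heme synthesis genes 1 was lower, and 0 without wild-type TCPOBOP replicate 4, and none was higher, against 1 without humanized replicate 3 or wild-type TCPOBOP replicate 2 and 2 without humanized replicate 4.

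Several conjugating enzymes differed in opposite directions under the 2 treatments. Gstm3, a glutathione transferase (chromosome 3, 107963696 to 107969174), was at 162, 207, 118 and 106 CPM in humanized and 3429, 4875, 4387 and 5249 CPM in wild-type TCPOBOP livers. Under vehicle the order was the opposite, 189, 135, 184 and 174 CPM in humanized and 40.8, 55.2, 45.6 and 30.2 CPM in wild-type livers. The humanized level was thus in a like range in both treatments, and the wild-type level lay below it under vehicle and above it under TCPOBOP. The log2 difference was -4.92 ± 0.27 under TCPOBOP (adjusted p = 2.04e-09) and 1.99 ± 0.24 under vehicle (adjusted p = 0.000175), with an interaction of -6.91 (adjusted p = 3.48e-09). Gsta1, another transferase, was at 0.886, 0.279, 0.512 and 0.119 CPM in humanized and 55.3, 73.5, 75.9 and 92.1 CPM in wild-type TCPOBOP livers, and at 0.939 to 3.21 and 0 to 0.364 CPM under vehicle. Its log2 differences were -7.37 ± 0.48 (adjusted p = 1.23e-08) and 3.33 ± 0.66 (adjusted p = 0.00627). Gstm2 had the same pattern, with -2.56 under TCPOBOP (adjusted p = 2.88e-06) and 1.01 under vehicle (adjusted p = 0.0174). Gstt1 (-2.27, adjusted p = 1.57e-06) and Gstt3 (-3.06, adjusted p = 9.89e-07) were lower under TCPOBOP and did not pass under vehicle. Of 25 glutathione genes tested, 11 were lower and 2 higher under TCPOBOP, and 8 were higher and 0 lower under vehicle, with medians of -0.293 and 0.409. Under TCPOBOP the median was -0.662 without humanized replicates 1 and 2, and with the offset for transcript length it was -0.99 and 14 were lower. The 2 higher ones were 5 without humanized replicate 4 or wild-type vehicle replicate 2, and 1 without humanized replicate 2, both humanized replicates 1 and 2, or wild-type TCPOBOP replicate 3 or 4.

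Sulfotransferases and glucuronosyltransferases, which attach sulfate or glucuronic acid to drugs and hormones, differed as well. Sult1e1, the estrogen sulfotransferase, was at 0, 0.140, 0.307 and 0.356 CPM in humanized and 25.9, 30.6, 66.4 and 41.4 CPM in wild-type TCPOBOP livers, 182-fold lower (adjusted p = 5.42e-08). Sult3a1 had no count in the humanized livers and 9.31, 8.77, 9.73 and 4.14 CPM in the wild-type livers, at least 85.4-fold lower. Both had 0 to 8 counts per group under vehicle, so the wild-type TCPOBOP group was the only one in which they were well detected. Ugt1a1, which conjugates bilirubin, was at 1145, 1007, 1110.0 and 746 CPM in humanized and 1833, 1829, 1947 and 2039.6 CPM in wild-type livers (-0.93 ± 0.17, adjusted p = 0.000722). Of the 25 tested genes of this list, 12 were lower and 3 higher, with a median of -0.797, and 1 was higher without wild-type TCPOBOP replicate 4. Under vehicle 2 were lower and 1 higher.

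Among enzymes of ester and carbonyl metabolism, Ces2a, a carboxylesterase that cleaves ester drugs, was at 786, 780.4, 734 and 645 CPM in humanized and 5508, 7304, 6579.7 and 6290.1 CPM in wild-type livers. It was 8.72-fold lower (-3.12 ± 0.21, adjusted p = 1.79e-08) and did not pass under vehicle (-0.10, adjusted p = 0.743). Akr1b7, an aldo-keto reductase, was at 1.19 to 2.81 CPM in humanized and 89.2 to 142 CPM in wild-type livers (-6.03 ± 0.52, adjusted p = 4.28e-07), and Aldh1a7, an aldehyde dehydrogenase, at 242 to 279 and 801 to 864 CPM (-1.66, adjusted p = 9.20e-07). The interaction passed for all 3 (-3.03, -6.16 and -1.42). Of 34 genes tested, 11 were lower and 6 higher, or 10 and 2 without humanized replicates 1 and 2.

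Among exporters, Abcc4, a transporter of conjugates and bile acids into blood, was at 3.25, 4.19, 11.3 and 9.48 CPM in humanized and 25.1, 51.6, 30.0 and 52.8 CPM in wild-type TCPOBOP livers (-2.48 ± 0.37, adjusted p = 0.000112). Under vehicle it was higher in humanized livers (8.85 to 16.4 against 2.93 to 6.85 CPM, log2 difference 1.30, adjusted p = 0.0281). Abcc3, which exports glucuronides, was at 399 to 592 and 875 to 1277 CPM (-1.20, adjusted p = 0.00154). Slc22a7, an uptake carrier of organic anions, had the opposite pattern, with 100.4, 81.8, 74.4 and 61.6 CPM in humanized and 28.7, 20.7, 22.0 and 15.4 CPM in wild-type TCPOBOP livers (1.87 ± 0.37, adjusted p = 0.00142) and lower values in humanized livers under vehicle (-1.85, adjusted p = 0.00709). Among 18 transporters 4 were lower and 1 was higher under vehicle, with a median of -0.457. Under TCPOBOP 6 were lower and 1 was higher, with a median of -0.0458, and the interaction passed for 3. Without humanized replicates 1 and 2 the number lower under TCPOBOP was 4. The higher count was 2 without humanized replicate 1 or wild-type vehicle replicate 1 or 4 and 4 without wild-type vehicle replicate 2.

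NRF2 is the transcription factor of the response to oxidative and electrophilic stress. Of its 18 tested targets 9 were lower and 0 higher, with a median of -0.618, and under vehicle 1 was lower and 3 were higher. The number lower under TCPOBOP was 6 without humanized replicates 1 and 2, and also 6 without wild-type TCPOBOP replicate 4. Srxn1, which repairs oxidized peroxiredoxins, was at 64.1, 54.5, 45.5 and 47.4 CPM in humanized and 158, 352, 329.6 and 493 CPM in wild-type livers (-2.66 ± 0.27, adjusted p = 2.33e-06; interaction -2.74). Gsr, glutathione reductase, was at 96.3 to 118 and 183 to 257 CPM (-1.04, adjusted p = 8.11e-05), and Pgd, which makes NADPH, at 42.2 to 53.3 and 104 to 171 CPM (-1.52, adjusted p = 0.000154). Nqo1, a quinone reductase also counted among the aryl hydrocarbon receptor targets, was lower under TCPOBOP (-1.03, adjusted p = 0.0109) and higher under vehicle (1.46, adjusted p = 0.00551). The first of these did not pass without humanized replicates 1 and 2 or without wild-type TCPOBOP replicate 4, with adjusted p up to 0.0583.

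**Figure D3:**
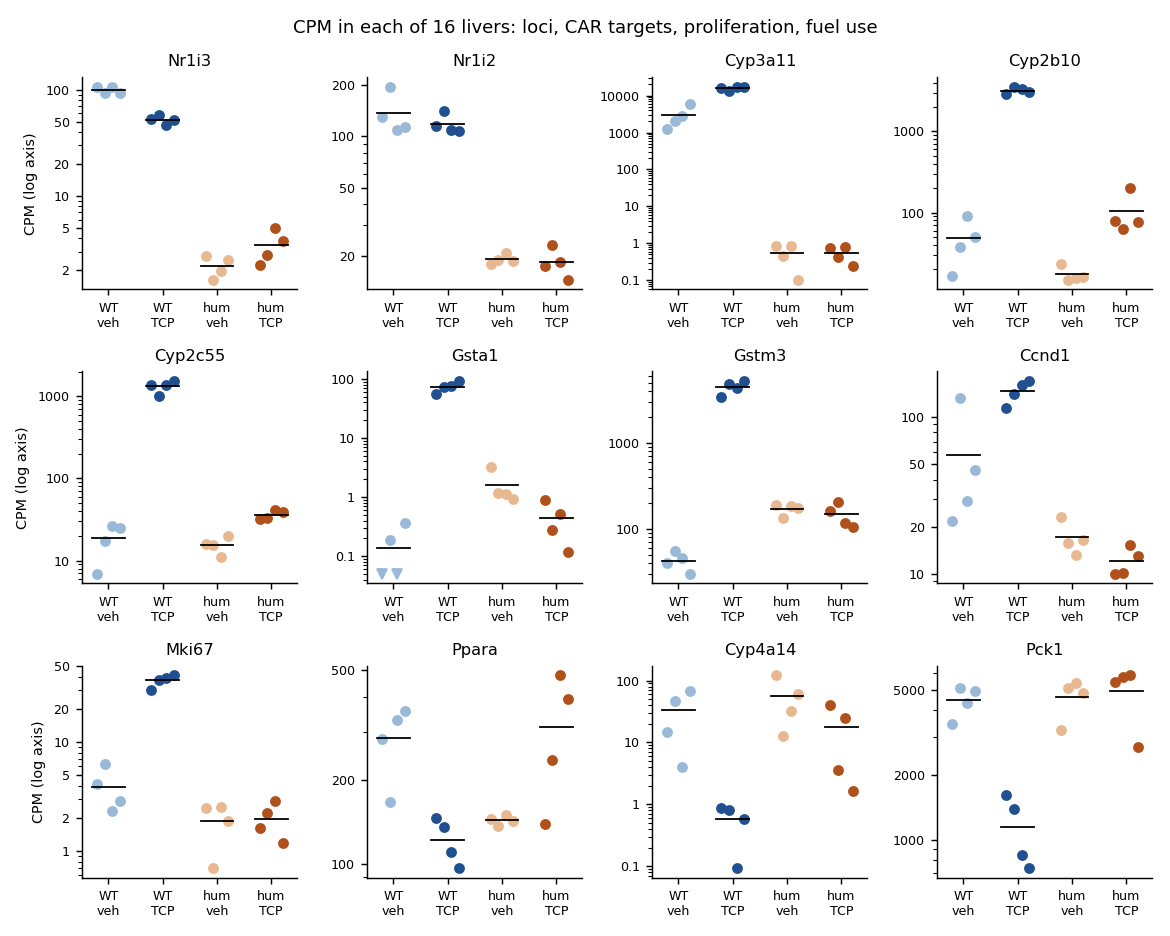
CPM of 12 genes in each of the 16 livers on log axes, with wild-type (WT) and humanized (hum) mice under vehicle (veh) and TCPOBOP (TCP). Points are libraries, triangles are libraries with 0 counts drawn at 0.05 CPM, and bars are group means. Cyp2b10, Cyp2c55, Gsta1, Gstm3 and Mki67 are highest in the 4 wild-type TCPOBOP livers, where Cyp4a14 is lowest.

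Genes of DNA replication and cell division were lower in humanized than in wild-type livers under TCPOBOP. Hepatocytes are mostly quiescent, and a dividing cell first makes the replication machinery and then the mitotic one. Many mitotic promoters carry a CCAAT box, bound by NF-Y, together with a cell cycle homology region (CHR) of the letters TTTGAA, bound by the DREAM and MuvB complexes. The promoters of 3 of these genes are shown because nearly all genes of the group were lower together. The 3 were taken in order of p among passing members, and only where the promoter held at least 1 of the motifs counted below. That each holds a match is thus by selection. The shown promoters have matches to CCAAT and TTTGAA, on either strand, in capitals. They run 5′ to 3′ on the gene's strand from 250 bases before to 50 bases after the start in the RefSeq annotation of GRCm38.p6. Prc1 bundles the central spindle (chr7:80294201-80294500, plus strand), Mki67 is the proliferation marker Ki-67 (chr7:135716330-135716629, minus strand) and Rrm2 is the small subunit of ribonucleotide reductase (chr12:24708004-24708303, plus strand).
Prc1: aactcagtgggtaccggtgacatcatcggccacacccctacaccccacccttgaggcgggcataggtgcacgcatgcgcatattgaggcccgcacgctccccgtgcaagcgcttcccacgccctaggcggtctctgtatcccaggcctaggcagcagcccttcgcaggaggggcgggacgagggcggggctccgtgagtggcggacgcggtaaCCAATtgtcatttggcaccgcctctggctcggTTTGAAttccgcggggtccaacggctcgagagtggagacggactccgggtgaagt
Mki67: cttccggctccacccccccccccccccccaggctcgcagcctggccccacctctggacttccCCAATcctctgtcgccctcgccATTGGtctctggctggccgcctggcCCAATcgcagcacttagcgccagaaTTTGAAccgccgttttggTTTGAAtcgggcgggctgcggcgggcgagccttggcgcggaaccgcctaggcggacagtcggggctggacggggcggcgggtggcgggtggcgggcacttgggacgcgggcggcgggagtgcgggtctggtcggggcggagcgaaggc
Rrm2: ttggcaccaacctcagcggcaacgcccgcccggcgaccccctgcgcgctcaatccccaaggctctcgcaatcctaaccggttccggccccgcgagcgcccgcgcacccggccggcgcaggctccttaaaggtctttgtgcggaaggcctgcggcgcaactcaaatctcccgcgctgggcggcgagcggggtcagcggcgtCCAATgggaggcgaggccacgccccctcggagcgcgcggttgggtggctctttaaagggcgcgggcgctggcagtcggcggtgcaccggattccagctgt
The Prc1 window holds 1 CCAAT and 1 TTTGAA match, the Mki67 window 3 and 2, and the Rrm2 window 1 CCAAT match and no TTTGAA match. Over the mitosis genes that were lower under TCPOBOP, 31 of 37 had a promoter in the table, of which 23 (74.2%) held CCAAT and 23 (74.2%) held TTTGAA. Among the DNA replication genes that were lower, 16 of 26 (61.5%) held CCAAT and 4 of 26 (15.4%) held TTTGAA. Of the promoters of all genes tested, 39.0% held CCAAT and 12.2% held TTTGAA, and of all 27025 promoters 37.9% and 18.1%. The E2F-type letters TTTCCCGC were in 0 of 31, in 4 of 26 (15.4%) and in 2.11% of the promoters of all genes tested. None of the 3 motifs contains another, and a match describes the sequence only.

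Of 38 mitosis genes tested, 37 were lower under TCPOBOP, with a median log2 difference of -4.01, and Cks2 did not pass (-0.63, adjusted p = 0.0957). Under vehicle 5 were lower, with a median of -1.05, and the interaction passed for 21. Mki67 (chromosome 7, 135689784 to 135716450) was at 1.62, 2.23, 2.87 and 1.19 CPM in the 4 humanized and 30.3, 37.5, 38.9 and 41.1 CPM in the 4 wild-type TCPOBOP livers. Every humanized library was below every wild-type library, and the gene was 18.4-fold lower (-4.20 ± 0.35, adjusted p = 3.28e-07), with 0.698 to 2.52 and 2.35 to 6.28 CPM under vehicle. Prc1 was at 0.591, 0.837, 0.819 and 0.830 CPM in humanized and 12.6, 14.8, 15.3 and 17.5 CPM in wild-type livers (-4.26 ± 0.33, adjusted p = 1.20e-07). Cdc20, the activator of the anaphase-promoting complex, was at 0 to 0.591 CPM in humanized and 22.2 to 55.8 CPM in wild-type livers (-7.30, adjusted p = 2.23e-06). Tpx2, a spindle assembly factor, was at 0.140 to 1.23 and 12.2 to 20.1 CPM, and Anln, needed for cytokinesis, at 0.443 to 1.02 and 6.35 to 12.2 CPM. These wild-type levels are low in absolute terms, and in humanized livers several genes were at the limit of detection. Ckap2 had 2 counts in the humanized TCPOBOP libraries together and 729 in the wild-type ones, a ratio of 142 (95% counting interval 39.0 to 1170).

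Of 40 genes of DNA replication and the entry into S phase, 33 were lower and 1 was higher under TCPOBOP, with a median of -2.12, against 7 lower and 1 higher under vehicle. Without wild-type vehicle replicate 2, 2 were higher under TCPOBOP. Rrm2, which supplies deoxynucleotides, was at 3.54, 3.49, 7.58 and 5.93 CPM in humanized and 99.4, 88.5, 144 and 157 CPM in wild-type livers (-4.55 ± 0.37, adjusted p = 2.61e-07; interaction -2.85, adjusted p = 0.00255). Mcm6, a subunit of the replicative helicase, was at 4.58, 3.91, 6.97 and 6.64 CPM in humanized and 63.2, 58.1, 78.2 and 82.3 CPM in wild-type livers (-3.66 ± 0.41, adjusted p = 6.49e-06). The exception was Mcm10, a replication initiation factor, at 109, 105, 80.1 and 54.3 CPM in humanized and 37.6, 29.8, 24.9 and 20.5 CPM in wild-type livers (1.63 ± 0.27, adjusted p = 0.000326). Ccnd1, cyclin D1, which drives the exit from quiescence, was at 10.04, 10.2, 15.4 and 13.0 CPM in humanized and 114, 140.2, 161 and 170.2 CPM in wild-type livers. It was 11.990-fold lower (-3.58 ± 0.44, adjusted p = 1.79e-05), also lower under vehicle (-1.74, adjusted p = 0.0134), where wild-type replicate 2 stood at 133 CPM, and its interaction did not pass (-1.84, adjusted p = 0.0582).

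Myc, a transcription factor of growth, was at 10.2, 14.2, 10.3 and 13.0 CPM in humanized and 29.3, 64.2, 62.1 and 58.7 CPM in wild-type livers (-2.17 ± 0.35, adjusted p = 0.000246; interaction -2.37, adjusted p = 0.00543). Wild-type replicate 1 was below the other 3 and still above all humanized libraries. Cdkn2c, an inhibitor of cyclin-dependent kinases, was at 2.96 to 5.32 and 21.1 to 25.4 CPM (-2.60, adjusted p = 1.12e-06). Gadd45g, a stress-induced brake on growth, was higher in humanized livers (2.70, adjusted p = 0.00754; adjusted p = 0.0802 without humanized replicates 1 and 2). These were the only 3 of 20 genes of growth arrest and growth signals that passed, and without humanized replicate 4 the number lower was 4.

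Fatty acid oxidation genes were higher in humanized than in wild-type livers under TCPOBOP. This pathway breaks down fatty acids in mitochondria and peroxisomes under the control of PPAR alpha. Of 39 genes tested, 20 were higher and 0 lower, with a median of 0.642, while under vehicle 1 was higher and 7 were lower, with a median of -0.217. The interaction passed for 17, and without humanized replicates 1 and 2 the number higher was 17. Ppara, the receptor gene itself (chromosome 15, 85734910 to 85806851), was at 139, 238, 478 and 394 CPM in humanized and 147, 136, 111 and 96.8 CPM in wild-type TCPOBOP livers. Humanized replicate 1 lay within the wild-type range and the other 3 above it, for a log2 difference of 1.35 ± 0.30 (adjusted p = 0.00371). Under vehicle the difference was the opposite, 138 to 150.2 against 167 to 354 CPM (-0.97, adjusted p = 0.0366), and the interaction was 2.32 (adjusted p = 0.00262).

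Acot1, an acyl-CoA thioesterase and target of PPAR alpha, was at 5.02, 3.77, 9.63 and 5.69 CPM in humanized and 0.547, 1.03, 0.795 and 0.771 CPM in wild-type livers (2.93 ± 0.40, adjusted p = 5.57e-05). The omega-hydroxylase gene Cyp4a14 was at 40.3, 3.63, 24.5 and 1.66 CPM in humanized and 0.876, 0.805, 0.0936 and 0.578 CPM in wild-type livers. Its humanized libraries spread widely and its wild-type ones were near the limit of detection, and the log2 difference was 4.88 ± 1.08 (adjusted p = 0.00332). Its neighbour in function Cyp4a10 was at 2.84 to 28.5 and 0.749 to 2.55 CPM (3.33, adjusted p = 0.00999; interaction 5.37, adjusted p = 0.00841). Slc27a1, a fatty acid carrier, was at 8.89 to 10.9 and 2.43 to 4.56 CPM (1.54, adjusted p = 0.000155).

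Genes of fatty acid and triglyceride synthesis were mixed. Of 30 tested, 9 were lower and 4 higher, with a median of 0.0242, against 5 and 2 without humanized replicates 1 and 2, and under vehicle 7 were lower and 3 higher. The median turned to -0.171 without those libraries and to -0.19 with the offset for transcript length. Fasn, fatty acid synthase, was at 313, 534, 752 and 600.0 CPM in humanized and 1719, 3372, 2152 and 1847 CPM in wild-type TCPOBOP livers. All humanized libraries were lower (-2.05 ± 0.43, adjusted p = 0.00245), as they were under vehicle (-1.96, adjusted p = 0.0103), and the interaction was -0.08 (adjusted p = 0.966). Elovl6, which elongates fatty acids, was at 76.2 to 128 and 192 to 312 CPM (-1.42, adjusted p = 0.000264), and Fads1, a desaturase, at 349 to 680.0 and 1127 to 1433 CPM (-1.20, adjusted p = 0.000354; interaction -1.26, adjusted p = 0.0104). Srebf1, the regulator of this pathway, overlapped between the strains at 166 to 437 and 161 to 369.9 CPM (0.13, adjusted p = 0.853). So did Scd1, stearoyl-CoA desaturase, at 1000.4 to 6246 and 2845 to 5935 CPM (0.01, adjusted p = 0.989). Pnpla3, a lipase of lipid droplets, was at 6.05, 12.7, 4.20 and 1.07 CPM in humanized and 18.2, 39.5, 37.7 and 30.5 CPM in wild-type livers. Its groups did not overlap, yet the spread was large and it did not pass (-2.41 ± 0.97, adjusted p = 0.0785).

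Fitm1, which helps form lipid droplets, was at 39.0, 39.9, 27.6 and 25.7 CPM in humanized and 2.30, 3.49, 1.59 and 2.41 CPM in wild-type livers, 13.4-fold higher (3.75 ± 0.34, adjusted p = 9.04e-07; interaction 3.04, adjusted p = 0.000606). Plin4, a coat protein of such droplets, was at 19.0, 13.0, 6.35 and 8.30 CPM in humanized and 1.75, 1.74, 0.936 and 0.771 CPM in wild-type livers (3.15 ± 0.54, adjusted p = 0.000415). It was also higher under vehicle (2.19, adjusted p = 0.0121).

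Cholesterol synthesis genes were lower in humanized livers. Of 25 tested, 20 were lower and 1 was higher under TCPOBOP, with a median of -0.943, and 8 were lower and 0 higher under vehicle, with a median of -0.495. The number lower was 13 without humanized replicate 2 and without humanized replicates 1 and 2, and the interaction passed for 1 gene. Sqle, squalene epoxidase, was at 99.97, 77.8, 88.2 and 95.3 CPM in humanized and 278, 308, 266 and 268 CPM in wild-type livers (-1.63 ± 0.22, adjusted p = 5.24e-05). Lss, lanosterol synthase, was at 56.4, 58.9, 65.1 and 71.6 CPM in humanized and 137, 243, 129 and 144 CPM in wild-type livers, of which replicate 2 was the highest (-1.37 ± 0.25, adjusted p = 0.000666). The exception Ebp, a sterol isomerase, was at 178 to 575 and 134 to 191 CPM (0.96, adjusted p = 0.0202). It did not pass in the fit of the 8 TCPOBOP libraries alone. Nor did it without wild-type TCPOBOP replicate 3 or 4, humanized replicate 1, or both humanized replicates 1 and 2, with adjusted p up to 0.415.

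Of 27 lipoprotein and sterol export genes, 13 were higher and 1 lower, with a median of 0.696, against 3 and 3 under vehicle. Without humanized replicates 1 and 2, 10 were higher and 0 lower, and 2 were lower without humanized replicate 1, 3 or 4, wild-type TCPOBOP replicate 1 or 2, or wild-type vehicle replicate 2. Abcg5, which exports sterols into bile, was at 132, 104, 158 and 112 CPM in humanized and 53.8, 52.0, 34.2 and 52.1 CPM in wild-type livers (1.40 ± 0.25, adjusted p = 0.000568). Apoc1, a short apolipoprotein transcript, was at 3342, 3256, 1614 and 1618 CPM in humanized and 921, 866, 807 and 638 CPM in wild-type livers (1.61 ± 0.28, adjusted p = 0.000537). Its humanized replicates 1 and 2, the libraries richest in short transcripts, were the highest, and without them its log2 difference was 1.02 (adjusted p = 0.0155). Mttp, which loads lipid onto nascent lipoproteins, was the one lower gene (-0.81, adjusted p = 0.00756; adjusted p = 0.114 without humanized replicates 1 and 2).

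Bile acid synthesis split by enzyme. Cyp7a1, the rate-limiting enzyme of the classical route, was at 22.0, 35.2, 102 and 27.3 CPM in humanized and 110.2, 129.6, 92.4 and 87.9 CPM in wild-type TCPOBOP livers. Humanized replicate 3 lay within the wild-type range, and the log2 difference was -1.17 ± 0.36 (adjusted p = 0.0255). It did not pass without humanized replicate 1, 2 or 4, both humanized replicates 1 and 2, or wild-type TCPOBOP replicate 2, with adjusted p up to 0.256. Cyp39a1, an oxysterol hydroxylase, was at 9.15, 11.998, 30.4 and 14.9 CPM in humanized and 63.6, 48.6, 63.0 and 123 CPM in wild-type livers (-2.15 ± 0.37, adjusted p = 0.00046), and Akr1d1, the steroid reductase of the pathway, at 85.9 to 228 and 449 to 587 CPM (-1.79, adjusted p = 5.57e-05). Cyp7b1, of the alternative route, was higher, at 239.8, 353, 226 and 368 CPM in humanized and 135, 66.1, 104 and 97.6 CPM in wild-type livers (1.56 ± 0.33, adjusted p = 0.00247; interaction 2.34, adjusted p = 0.00441). Of 20 genes, 6 were higher and 3 lower, with 3 higher without wild-type TCPOBOP replicate 3 or 4.

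Pck1, the first committed enzyme of gluconeogenesis, was at 5428, 5699, 5837 and 2689.6 CPM in humanized and 1615, 1392, 852 and 737 CPM in wild-type TCPOBOP livers. The lowest humanized library, replicate 4, was above every wild-type library, and the gene was 4.28-fold higher (2.10 ± 0.30, adjusted p = 6.70e-05). Under vehicle its ranges overlapped, at 3238 to 5384 and 3465 to 5100.4 CPM (0.06, adjusted p = 0.901), and the interaction passed (2.04, adjusted p = 0.0046). Pklr, the pyruvate kinase of glycolysis, was at 101 to 197 CPM in humanized and 288 to 617 CPM in wild-type livers (-1.52, adjusted p = 0.00236) and also lower under vehicle (-2.35, adjusted p = 0.000673). Ppp1r3c, which targets a phosphatase to glycogen, was at 42.4 to 52.6 and 8.96 to 28.8 CPM (1.66, adjusted p = 0.00247). Of 23 glucose genes, 8 were higher and 3 lower under TCPOBOP, with a median of 0.529 (0.27 without humanized replicates 1 and 2), and 0 were higher and 6 lower under vehicle. The number higher was 5 without wild-type TCPOBOP replicate 3 and 4 without replicate 4 of that group.

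Slc2a2, the glucose transporter GLUT2 of hepatocytes, reversed between treatments. It was at 87.6, 141, 318 and 239.7 CPM in humanized and 101, 113, 80.2 and 60.7 CPM in wild-type TCPOBOP livers, and at 36.9, 32.9, 28.9 and 31.5 CPM in humanized and 316, 150.3, 260.4 and 299 CPM in wild-type vehicle livers. Humanized TCPOBOP replicate 1 lay within the wild-type range, and the log2 difference was 1.15 ± 0.32 under TCPOBOP (adjusted p = 0.0153) and -2.98 ± 0.34 under vehicle (adjusted p = 0.000104). The first did not pass without humanized replicate 3 or wild-type TCPOBOP replicate 4, with adjusted p up to 0.0594, while the interaction was 4.12 (adjusted p = 4.27e-05).

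Of 31 genes of amino acid and nitrogen metabolism, 10 were higher and 2 lower, with 6 higher without wild-type TCPOBOP replicate 3 or 4. Without humanized replicates 1 and 2 the number higher was 7. Under vehicle 7 were higher and 0 lower, with medians of 0.413 under TCPOBOP and 0.308 under vehicle, and the interaction passed for 4. The next values are of TCPOBOP livers unless vehicle is named. Oat, ornithine aminotransferase, was at 2072, 1644, 1493 and 1179.7 CPM in humanized and 238, 404, 254 and 134 CPM in wild-type livers (2.63 ± 0.28, adjusted p = 4.37e-06), and it was also higher under vehicle (1.60, adjusted p = 0.00257). Bhmt, which remethylates homocysteine, was at 856, 1621, 597 and 948 CPM in humanized and 209, 182, 213 and 71.5 CPM in wild-type livers (2.58 ± 0.34, adjusted p = 3.83e-05). It did not pass under vehicle (-0.06, adjusted p = 0.911; interaction 2.63). Got1, an aspartate aminotransferase, was at 171 to 349.7 and 41.7 to 149.6 CPM (1.54, adjusted p = 0.00245). The 2 lower genes make amino acids. Asns, asparagine synthetase, was at 6.50, 8.93, 2.66 and 5.69 CPM in humanized and 38.6, 12.8, 12.1 and 58.7 CPM in wild-type TCPOBOP livers (-2.38 ± 0.52, adjusted p = 0.00311), but higher in humanized livers under vehicle (1.94, adjusted p = 0.0183). Psat1, of serine synthesis, was at 0.140 to 0.615 and 3.04 to 14.6 CPM (-4.06, adjusted p = 0.000327).

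Some zonal genes were higher at each end of the lobule. Among 18 periportal genes 8 were higher and 0 lower, with a median of 0.678, and among 18 pericentral genes 7 were higher and 3 lower, with a median of 0.149. The periportal number was 5 without wild-type TCPOBOP replicate 3 or 4, humanized replicate 2, or both humanized replicates 1 and 2. Pigr, the transporter of polymeric immunoglobulin, was the third periportal gene by p after Pck1 and Igf1, at 1316 to 1936 and 206 to 627 CPM (1.73, adjusted p = 0.000745). Slc1a2, a glutamate carrier of pericentral hepatocytes, was at 244, 250.3, 304 and 207 CPM in humanized and 57.3, 59.5, 50.2 and 33.0 CPM in wild-type livers (2.33 ± 0.22, adjusted p = 1.34e-06; interaction 2.01, adjusted p = 0.000627).

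Growth hormone acts on hepatocytes through STAT5 and raises Igf1, Igfals and its own inhibitor Socs2. Of 14 genes of this axis 5 were higher and 0 lower under TCPOBOP, with a median of 0.553, while the median under vehicle was -0.379. Igf1 was at 536, 503, 525 and 391 CPM in humanized and 226, 163, 173 and 101 CPM in wild-type TCPOBOP livers (1.56 ± 0.23, adjusted p = 0.000105). Its groups lay well apart, as did those of Igfals, which carries IGF1 in serum, at 92.1 to 149.7 and 20.2 to 61.7 CPM (1.56, adjusted p = 0.00195). Socs2 was at 19.6, 40.6, 13.2 and 7.82 CPM in humanized and 2.30, 1.97, 2.62 and 4.53 CPM in wild-type livers (2.82 ± 0.57, adjusted p = 0.00165). The number higher was 3 without wild-type TCPOBOP replicate 4.

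Male-biased liver genes, which depend on pulsed growth hormone, were higher for 8 of 22 and lower for 0, with a median of 0.890, while under vehicle 1 was higher and 5 were lower. Without humanized replicates 1 and 2 the number higher was 5. Cyp4a12b, a male-biased hydroxylase, was at 39.9 to 69.8 and 9.54 to 23.9 CPM (1.58, adjusted p = 0.000824). Of 13 female-biased genes 5 were lower and 1 higher. Among the 5 are Cyp3a44, Cyp3a16 and Sult3a1, given above, and Prom1, described with the largest differences below. Cyp3a44 and Cyp3a16 are mouse genes of the humanized loci, so their differences cannot be read as ones of sex-biased expression. The higher one, Cyp2c69, was at 0.830 to 2.97 and 0.0936 to 0.179 CPM (3.49, adjusted p = 0.0161) and did not pass without humanized replicate 3. The higher count was 2 without humanized replicate 2 or 4 or without wild-type vehicle replicate 2, 3 or 4.

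Acute phase and complement genes encode proteins that hepatocytes secrete in inflammation and stress. Of 28 tested, 3 were higher and 0 lower under vehicle, with a median of 0.292. Under TCPOBOP 15 were higher and 0 lower, with a median of 0.837, and the interaction passed for 3. Without humanized replicates 1 and 2 the number higher under TCPOBOP was 8, with a median of 0.509. Mt2, a metallothionein that binds zinc and copper, was at 2020.4, 629, 472 and 356 CPM in humanized and 90.8, 44.7, 37.2 and 26.0 CPM in wild-type livers. Humanized replicate 1 stood above the other 3, and all 4 were above the wild-type libraries (4.13 ± 0.54, adjusted p = 3.26e-05). Mt1 had the same order, at 3355, 790.3, 627 and 429.8 CPM in humanized and 104, 82.4, 47.0 and 38.5 CPM in wild-type livers (4.26 ± 0.63, adjusted p = 0.000106). Both transcripts are short, and without humanized replicates 1 and 2 their log2 differences were 3.08 (adjusted p = 0.000247) and 2.97 (adjusted p = 0.000833). Hamp, which encodes the iron hormone hepcidin, was at 440.1 to 799 and 132 to 305 CPM (1.74, adjusted p = 0.000134) and was higher under vehicle too (1.37, adjusted p = 0.00513). Saa3, a serum amyloid A, was at 148, 46.2, 15.4 and 73.2 CPM in humanized and 8.98, 11.3, 11.4 and 11.2 CPM in wild-type livers (2.72 ± 0.46, adjusted p = 0.00035).

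Of 22 interferon-induced genes 1 was lower and 2 were higher under vehicle, with a median of -0.463. Under TCPOBOP 8 were lower and 0 higher, with a median of -0.644, and the interaction passed for 2. The number lower under TCPOBOP was 13 without humanized replicate 3 and 5 without humanized replicates 1 and 2. Rsad2, the antiviral protein viperin, was at 9.60, 8.23, 13.7 and 7.94 CPM in humanized and 34.4, 22.9, 34.9 and 58.6 CPM in wild-type livers (-1.93 ± 0.31, adjusted p = 0.000209), and Ddx58, the RNA sensor RIG-I, at 21.8 to 27.0 and 34.1 to 52.7 CPM (-0.82, adjusted p = 0.00216). The summed levels of lymphocyte and Kupffer cell markers that could bear on these genes are given above, and their part was not tested. Of 19 genes of the unfolded protein response and ATF4, 3 were lower and 1 higher, with 1 lower without wild-type TCPOBOP replicate 4 and 8 lower without humanized replicates 1 and 2. Of 15 core clock genes 4 were higher and 0 lower, among them Nfil3 at 23.5 to 75.9 and 9.58 to 13.4 CPM (1.98, adjusted p = 0.000514). That count ran from 1 without wild-type TCPOBOP replicate 1 or 4 and 2 without humanized replicate 2 or 3 to 8 without wild-type vehicle replicate 2, and the labels do not state the time of day of collection. Of 15 clock output genes 3 were higher and 1 lower, the latter not passing without humanized replicate 1 or 2 or wild-type TCPOBOP replicate 4.

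**Figure D4:**
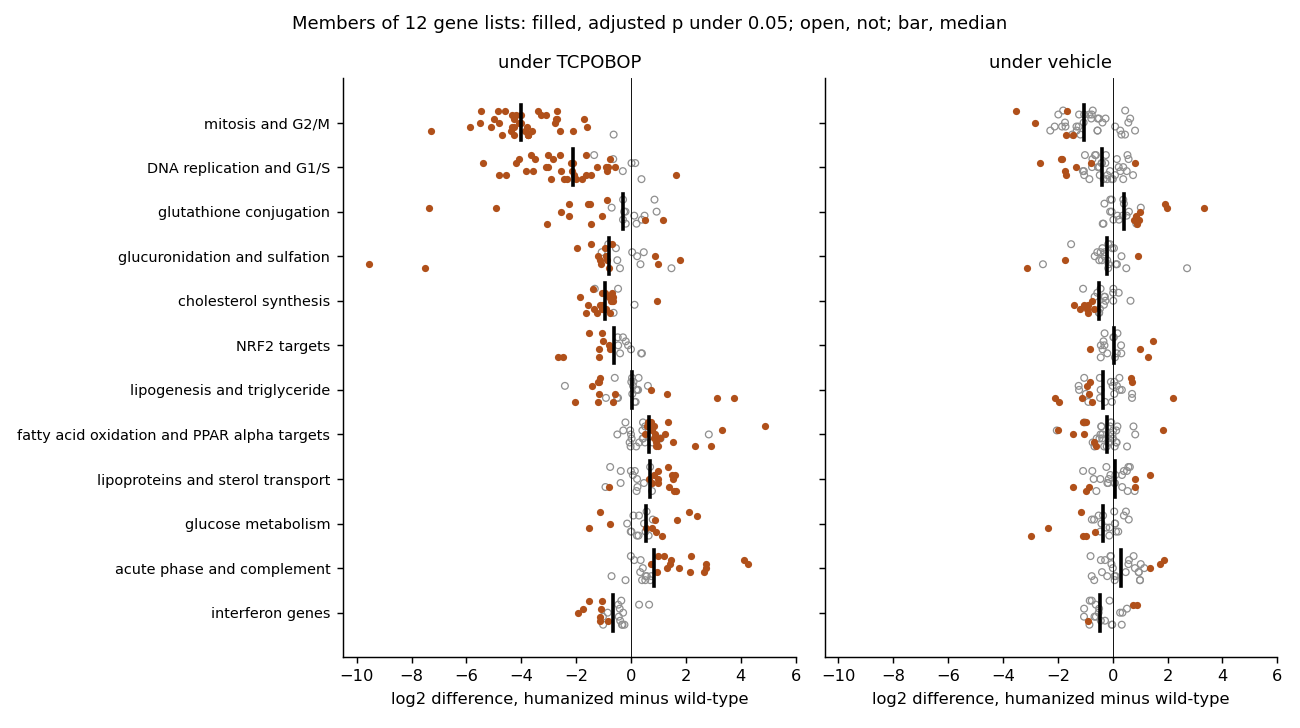
Log2 strain differences of the tested members of 12 gene lists under TCPOBOP (left) and vehicle (right), with filled points for genes that passed the test, open points for those that did not, and a bar at the median. The mitosis list lies at a median of -4.01 under TCPOBOP and -1.05 under vehicle, and the fatty acid oxidation list at 0.642 and -0.217.

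The largest differences that were lower in humanized livers included genes hardly expressed in any other group. Pnliprp1, a pancreatic lipase relative, had 2 counts in the humanized and 1776 counts in the wild-type TCPOBOP libraries, a ratio of 345 (95% counting interval 95.3 to 2850), and no count in any vehicle library. Nebl, an actin-binding protein, had 1 count against 1334, a ratio of 518 (92.8 to 20500). Prom1, a membrane glycoprotein known from bile duct and progenitor cells, was at 0.886, 1.81, 0.410 and 0.830 CPM in humanized and 27.8, 29.6, 36.4 and 31.1 CPM in wild-type TCPOBOP livers (-5.02 ± 0.68, adjusted p = 4.76e-05; interaction -4.82, adjusted p = 0.00345). The summed levels of the 7 cholangiocyte markers, of which Prom1 is 1, were 39.03 to 88.42 CPM in humanized and 62.76 to 77.66 CPM in wild-type livers.

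Krt4, an epithelial keratin, was at 0.295, 0.140, 0 and 0.119 CPM in humanized and 54.7, 58.7, 68.9 and 59.3 CPM in wild-type TCPOBOP livers (-8.80 ± 1.55, adjusted p = 0.000544). Under vehicle it was at 1.47, 51.4, 0.188 and 0.364 CPM in wild-type livers, so that replicate 2 held nearly all of its counts there. Krt79 had 1 count in the humanized and 746 in the wild-type TCPOBOP libraries, a ratio of 290 (51.8 to 11500), and in wild-type vehicle livers 0.880, 62.0, 0.0939 and 0.182 CPM. Its difference under TCPOBOP did not pass without humanized replicates 1 and 2 (adjusted p = 0.11). Slc34a2, a phosphate carrier, was at 1.18, 1.40, 0.102 and 0.356 CPM in humanized and 11.9, 20.7, 22.4 and 11.7 CPM in wild-type TCPOBOP livers (-4.54 ± 1.10, adjusted p = 0.00644), and again highest in wild-type vehicle replicate 2, with 7.19, 74.0, 1.31 and 1.82 CPM.

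Among the largest differences that were higher in humanized livers, several were lowest in wild-type TCPOBOP livers. Rdh16, a retinol dehydrogenase, was at 74.4, 72.3, 109 and 51.9 CPM in humanized and 7.44, 12.6, 5.80 and 3.56 CPM in wild-type TCPOBOP livers, 10.4-fold higher (3.38 ± 0.35, adjusted p = 3.61e-06). Under vehicle it was at 43.3 to 91.5 and 54.0 to 102 CPM and did not pass (-0.14, adjusted p = 0.781). Susd4, a complement regulator, was at 21.6, 43.0, 32.1 and 49.7 CPM in humanized and 4.22, 2.19, 3.74 and 1.64 CPM in wild-type livers (3.63 ± 0.50, adjusted p = 5.57e-05). Olig1, a transcription factor best known from glia, was at 3.69 to 5.91 and 0.0468 to 0.219 CPM (5.41, adjusted p = 1.80e-06), and Obp2a, an odorant-binding protein, at 1.64 to 15.1 and 0 to 0.374 CPM (5.57, adjusted p = 0.000558).

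Of the 100 genes with opposite strain differences under the 2 treatments, all 100 passed the interaction, which their selection all but fixed. The interaction is the difference of the same 2 contrasts, in which these genes had passed with opposite signs. Beside Gsta1, Gstm3, Gstm2 and Slc2a2 they include Rdh9, a relative of Rdh16, at 55.7, 55.0, 74.0 and 52.6 CPM in humanized and 11.5, 7.43, 5.43 and 5.20 CPM in wild-type TCPOBOP livers and at 25.5 to 38.8 and 37.3 to 98.6 CPM under vehicle. Its log2 difference was 3.01 ± 0.31 under TCPOBOP (adjusted p = 2.76e-06) and -1.20 ± 0.29 under vehicle (adjusted p = 0.015). Ccl9, a chemokine, was at 125, 95.7, 97.5 and 85.8 CPM in humanized and 338, 266, 399 and 427 CPM in wild-type TCPOBOP livers and at 118 to 165 and 48.3 to 75.0 CPM under vehicle. It was lower with the compound (-1.82 ± 0.20, adjusted p = 4.98e-06) and higher without it (1.21, adjusted p = 0.00197). Acmsd, which steers tryptophan breakdown away from NAD synthesis, was at 12.7 to 24.1 and 126 to 164 CPM under TCPOBOP (-2.84, adjusted p = 1.80e-06) and at 38.1 to 62.4 and 16.7 to 44.7 CPM under vehicle (0.82, adjusted p = 0.0434). Fyb2, an adaptor protein, had log2 differences of -2.19 (adjusted p = 2.63e-07) and 1.09 (adjusted p = 0.00238). In Ccl9, Acmsd and Fyb2 the humanized level was lower under TCPOBOP than under vehicle in its group mean, and the wild-type level was higher.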

How the data were processed

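Poly(A)-selected liver RNA was sequenced. The deposited table holds counts per transcript accession, as whole numbers in 16 libraries, and per the submitters' processing notes the authors used STAR, DESeq2 and mm10, with versions not given. No source used here names the counting program, the annotation or the strandedness. Of the counts of at least 20, 74.91% were even, so the deposited values may be halved and counting intervals are approximate. Of 40458 accessions, 40214 matched a RefSeq and 130 a GENCODE symbol, 114 stayed without one, and the accession with the highest mean count represented each of 24970 genes.

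All 16 libraries were fitted in edgeR 4.0.16 (limma 3.58.1, R 4.3.3) with 4 group means, filterByExpr, which kept 12913 genes, TMM and two-sided quasi-likelihood tests. The threshold was a Benjamini-Hochberg adjusted p of 0.05. The script was tested on simulated data. The members and lists were chosen with earlier results of these data known. Genes named were the 15 largest differences in each direction with at least 5 CPM in the higher group and no overlap, predicted genes left out, in each list up to 4 passing members in order of p, 15 fixed genes, and 10 each of opposite and shared direction, of which those the results turn on are given. Some genes that the rule takes are not reported here. Cyp3a57, Cyp3a13, Slc2a2, Cks2, Gadd45g, Psat1, Cyp2c69, Mttp, Ebp and Mcm10 were named after their values were seen where no part of this rule took them. Transcript lengths came from GENCODE for 93.4% of the tested genes, coordinates from the GRCm38.p6 RefSeq table. Groups with 0 counts were set to 3 counts, and the ratios with 95% intervals cover counting error only. Alternatives were other scalings (RLE, upper quartile), DESeq2 1.42.0, no filter or a filter of 5 CPM in 4 libraries, the 8 TCPOBOP libraries alone, thinned wild-type libraries, another accession per gene, a replicate block, and each library left out. Leaving out 2 libraries together and the length offset were chosen after seeing the data.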

Additional observations from a re-analysis of the deposited data

Results flagged for a closer look

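Single libraries stood apart within their group of 4. In 232 groups of 4 libraries checked, 17 had a lowest or highest library whose gap to the nearest other exceeded Dixon's 95% critical value as a share of the group's range, which chance gives in about 1 of 20 groups. In humanized TCPOBOP replicate 3, Cyp2b10 was at 201 CPM (others 63.3 to 79.7 CPM), Cyp7a1 was at 102 CPM (others 22.0 to 35.2 CPM) and Rdh9 was at 74.0 CPM (others 52.6 to 55.7 CPM). In wild-type TCPOBOP replicate 2, Por was at 2450 CPM (others 1490 to 1560 CPM), Fads1 was at 1430 CPM (others 1130 to 1170 CPM), Lss was at 243 CPM (others 129 to 144 CPM) and Cks2 was at 6.17 CPM (others 4.21 to 4.49 CPM). In wild-type TCPOBOP replicate 1, Myc was at 29.3 CPM (others 58.7 to 64.2 CPM) and Saa3 was at 8.98 CPM (others 11.2 to 11.4 CPM). In humanized TCPOBOP replicate 2, Slc27a1 was at 10.9 CPM (others 8.89 to 9.22 CPM). In wild-type TCPOBOP replicate 3, Abcg5 was at 34.2 CPM (others 52.0 to 53.8 CPM). In humanized TCPOBOP replicate 4, Pck1 was at 2690 CPM (others 5430 to 5840 CPM). In humanized TCPOBOP replicate 1, Mt1 was at 3360 CPM (others 430 to 790 CPM) and Mt2 was at 2020 CPM (others 356 to 629 CPM). In wild-type TCPOBOP replicate 4, Nfil3 was at 9.58 CPM (others 12.9 to 13.4 CPM). In wild-type vehicle replicate 2, the long minus short transcript value was 0.0234 (others 0.457 to 0.498). In wild-type vehicle replicate 1, the total count was 11827994 (others 18204596 to 19483951). 

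The strain difference under TCPOBOP differed from that under vehicle, by the interaction test, for 63 of the 110 genes given above. The log2 interaction was negative, humanized livers being relatively lower under TCPOBOP, for these genes of drug metabolism and stress: Cyp2b10 (-3.45), Cyp2c55 (-4.91), Cyp1a2 (-0.95), Gsta1 (-10.71), Gstm3 (-6.91), Gstm2 (-3.57), Gstt1 (-1.97), Gstt3 (-2.70), Akr1b7 (-6.16), Ces2a (-3.03), Aldh1a7 (-1.42), Abcc4 (-3.78), Srxn1 (-2.74), Gsr (-1.22), Nqo1 (-2.48) and Pgd (-1.23). It was also negative for these genes of growth and division: Myc (-2.37), Cdkn2c (-1.88), Rrm2 (-2.85), Mcm6 (-3.02), Prc1 (-3.76), Mki67 (-3.16), Tpx2 (-3.00), Anln (-2.30) and Cdc20 (-5.02). Other genes with a negative value were Fads1 (-1.26), Akr1d1 (-1.48), Asns (-4.32), Rsad2 (-2.28), Prom1 (-4.82), Ccl9 (-3.03), Acmsd (-3.67), Fyb2 (-3.28) and Psat1 (-3.25). It was positive for Nr1i3 (1.60), Cyp2c38 (2.33), Cyp2c67 (2.59), Slc22a7 (3.73), Ppara (2.32), Cyp4a10 (5.37), Acot1 (2.40), Slc27a1 (1.41), Fitm1 (3.04), Cyp7b1 (2.34), Pck1 (2.04) and Ppp1r3c (2.42). Further genes with a positive value were Slc2a2 (4.12), Bhmt (2.63), Slc1a2 (2.01), Igfals (1.95), Mt2 (2.27), Olig1 (4.21), Obp2a (5.59), Susd4 (4.25), Rdh16 (3.52), Rdh9 (4.20), Mcm10 (1.54), Cyp2c69 (5.71) and Pigr (2.07). For genes with at most 3 counts in a group the adjusted p of the interaction was 0.0312 for Cyp3a16, 0.000606 for Sult1e1, 0.00161 for Ckap2 and 0.0165 for Nebl, with no fold given.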

How the results depend on the processing

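Of the 110 genes given above, 105 passed the test. All 105 kept their direction under the 27 alternatives wherever they were tested, and 97 passed in every one of them. The 8 that did not were Cyp2c69, Cyp7a1, Ebp, Gadd45g, Krt79, Mttp, Nqo1 and Slc2a2, each with its values above. With an offset for transcript length and with DESeq2, 103 of 103 tested still passed.

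Counts over all genes moved more. Leaving out humanized TCPOBOP replicates 1 and 2 gave 915 higher genes in place of 1527 and 2876 interaction genes in place of 963, of which 894 of the 963 were shared. DESeq2 gave 1481 interaction genes, and the cause of these shifts was not tested. In fits that left out 1 library, higher genes ranged from 852 (wild-type TCPOBOP replicate 4) to 2160 (wild-type vehicle replicate 2), with 986 without wild-type TCPOBOP replicate 3. Lower genes ranged from 1111 to 2003 and interaction genes from 575 (wild-type TCPOBOP replicate 4) to 1782 (humanized TCPOBOP replicate 1). Interaction genes also numbered 630, 618 and 1705 in such fits. Other scalings, filters, accessions and tools, the 8 TCPOBOP libraries alone and the length offset gave 1171 to 2036 higher and 1328 to 1756 lower genes, and leaving out humanized TCPOBOP replicates 1 and 2 gave 1239 lower. With the wild-type TCPOBOP libraries thinned to the mean depth of the humanized TCPOBOP libraries, 1593 genes were higher and 1439 lower. The median over all genes stayed within 0.04 of 0 on the log2 scale under each scaling. Higher genes were 48.1% of those that passed, and 42.5% to 53.7% over the alternatives.

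Same-numbered TCPOBOP libraries of the 2 strains had deviations correlated at -0.0331, 0.191, -0.0915 and 0.129 over genes, and those of the wild-type vehicle and TCPOBOP libraries at 0.0998, 0.581, 0.218 and 0.176 and those of the humanized ones at 0.0724, -0.126, -0.244 and -0.0157. In none of these sets was every pair above 0.1, so the numbers were not taken as pairing the samples. With the replicate block, 1460 genes were higher, 1666 lower and 865 passed the interaction. Depth limits single values to the floors of 0.1343 to 0.4391 CPM given above.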
